A study of Homo sapiens with 4 samples.

Results

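Messenger RNAs end where the nascent transcript is cut and, for most genes, given a poly(A) tail. The RNA levels of 40 genes for the proteins of this 3′ end processing machinery were examined in H9, an established line of human embryonic stem cells. The genes were chosen by symbol from a list of cleavage factors, poly(A) polymerases, histone mRNA processing factors and Integrator subunits. All 40 were found, each as 1 row among the 60671 Ensembl genes of the deposited table. The values carry no named unit and were read as TPM. TPM is a share of all transcripts on a common scale, corrected for the length of each gene. On that reading, levels of different genes were set side by side.

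Poly(A)-selected RNA was sequenced from 2 control libraries and 2 libraries of the genotype labelled CFIm25 KO+ 3Flag-CFIm25 overexpression, called KO+OE. Both groups were H9 cells in mTeSR medium with no treatment. The labels do not say whether control means parental H9 cells or cells that received an empty editing vector, and the study used both. For RNA-seq of the re-expressing cells, the paper names mock control cells as the comparison. CFIm25 is the small subunit of cleavage factor I and is encoded by NUDT21. The KO+OE line descends from 1 edited clone to which a 3Flag-tagged CFIm25 cDNA was returned by a lentivirus with an EF1 promoter. The series title calls the edit a knockdown where the genotype label says KO, and the study describes edited clones that kept a small amount of CFIm25 shortened at its start. Edited cells without the returned cDNA are not analysed here, so the comparison asks how the re-expressing line differed from control. The sources do not say that replicates were separate cultures, and p-values measure only the spread between these libraries.

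A cleavage site is marked by the AAUAAA hexamer, which the CPSF complex binds and whose CPSF3 subunit cuts the RNA. CSTF binds U- or GU-rich RNA downstream, cleavage factor I binds UGUA motifs upstream, and cleavage factor II and a poly(A) polymerase complete the reaction. The mRNAs of replication-dependent histones carry a stem-loop in place of a poly(A) tail and use a related set of factors. Integrator, which has its own endonuclease, cuts small nuclear RNAs and many nascent transcripts.

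The edit was aimed at the start of the NUDT21 reading frame with 3 guide RNAs, whose sequences are shown because they define where the gene was targeted. Which of them made the clone behind the KO+OE line is not given in the sources used here. Each had 1 exact match in GRCh37 followed by an NGG motif, and all 3 lay in the coding part of exon 1 on chromosome 16, whose 116 coding bases run from 56484999 to 56485114 with the gene on the minus strand. Capitals mark the 18 bases that the sites of g1 and g3 share on opposite strands.
g1: caGCCGGTCTGCGAGCGATT
g2: ccgaactgagtgaccccccg
g3: ccAATCGCTCGCAGACCGGC
The g1 site runs from 56485077 to 56485096 on the plus strand and covers coding bases 19 to 38, counted from the A of the start codon. The g2 site runs from 56485053 to 56485072 on the plus strand and covers coding bases 43 to 62. The g3 site runs from 56485079 to 56485098 on the minus strand and covers coding bases 17 to 36. Together the sites span 46 bases.

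The libraries summed to 986853 to 987078 TPM, and mitochondrial genes took 20.96% to 22.05%. The table holds no read counts, so the depth is unknown. The 6 pluripotency markers were at 15.85 TPM or more in each library, with POU5F1 at 2164 to 2212 TPM. Of 12 germ layer markers, 9 stayed at or under 0.59 TPM and SOX17 was listed at 0 throughout. The exceptions were NES (79.59 to 82.77 TPM), GATA6 (4.35 to 8.39 TPM) and TBX6 (1.61 to 2.64 TPM). In such bulk RNA, fewer cells of a type and less RNA per cell cannot be told apart.

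The 40 genes ranged from SSU72, at a mean of 190.6 TPM over the 4 libraries, to INTS2, at 0.395 TPM, a 482-fold range. None was listed at 0 in any library. By mean level, 4 genes were above 100 TPM, 7 lay between 20 and 100, 14 between 5 and 20, 10 between 1 and 5, and 5 under 1 TPM. In the order of levels, the top 5 genes (SSU72, NUDT21, CPSF1, LSM10 and INTS1) did not overlap with their neighbours over the 4 libraries. Of all 39 neighbouring pairs, 28 overlapped, so that the order in the middle and at the bottom is mostly not resolved. Summed over the 40 genes, the level was 1098 to 1144 TPM per library, or 0.111% to 0.116% of the total.

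**Figure D1:**
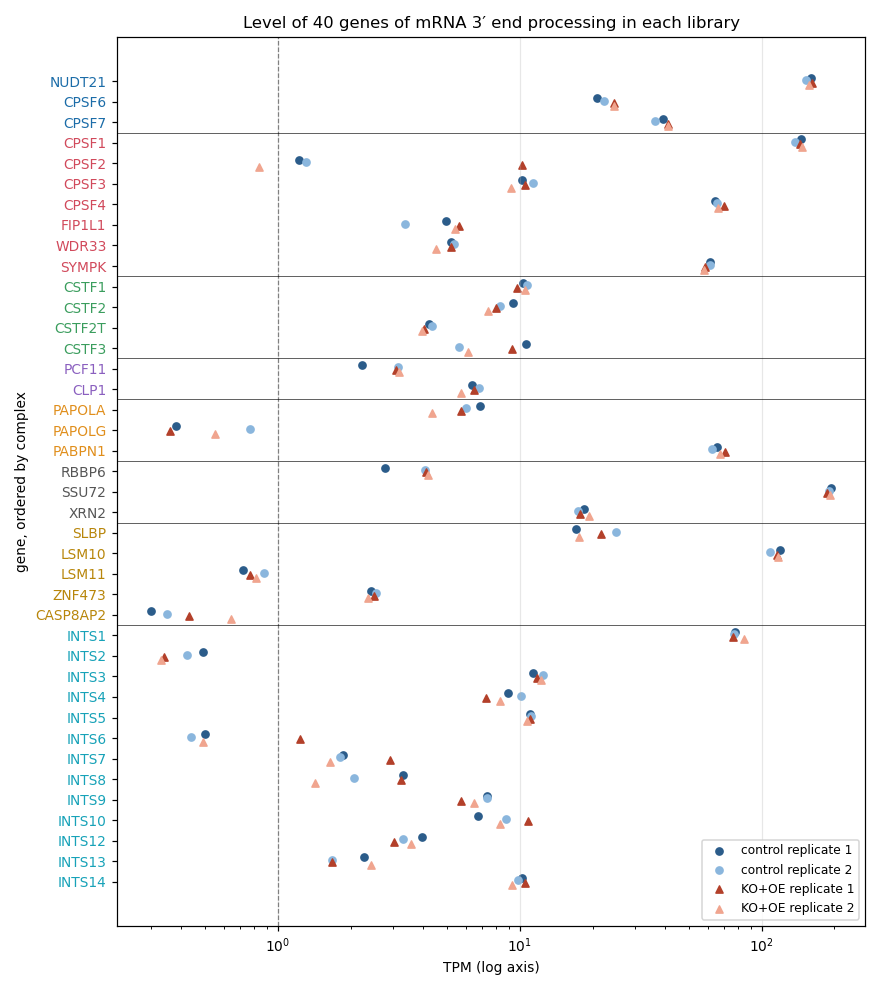
TPM (horizontal log axis) of the 40 genes in each of the 4 libraries, with circles for control, triangles for KO+OE, gene names coloured by complex and a dashed line at 1 TPM. Genes of 1 complex lie far apart (INTS1 at 76.45 to 84.41 TPM and INTS2 at 0.33 to 0.49 TPM), while the 4 libraries of a gene mostly lie close together, with CPSF2 in KO+OE replicate 1 standing apart.

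The groups were compared with limma on log2(TPM + 1) over the 12319 genes averaging 1 TPM or more, a scale that understates the change of low genes. Of the 40 genes, 35 passed this filter. None of the 35 passed an adjusted p of 0.05 in limma, where 1 gene of all tested (0.00812%) did; that gene, AC125388.1, is outside the list and was named after its values were seen. At an unadjusted p under 0.05 limma gave 1 of the 35 genes, or 2.86%, against 5.33% of all genes tested. The 2 groups did not overlap in 13 of the 35 genes, or 37.1%, against 34.1% of all genes tested. Among these 13, KO+OE was the higher group in 6 and the lower in 7. The median log2 fold change, KO+OE minus control, was -0.02 over the 35 genes and -0.01 over all genes tested. The 95% interval of the gene's own fold change lay within 2-fold of TPM + 1 in either direction for 33 of the 35 genes, against 92.6% of all genes tested. For low genes this allows a larger change in TPM.

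**Figure D2:**
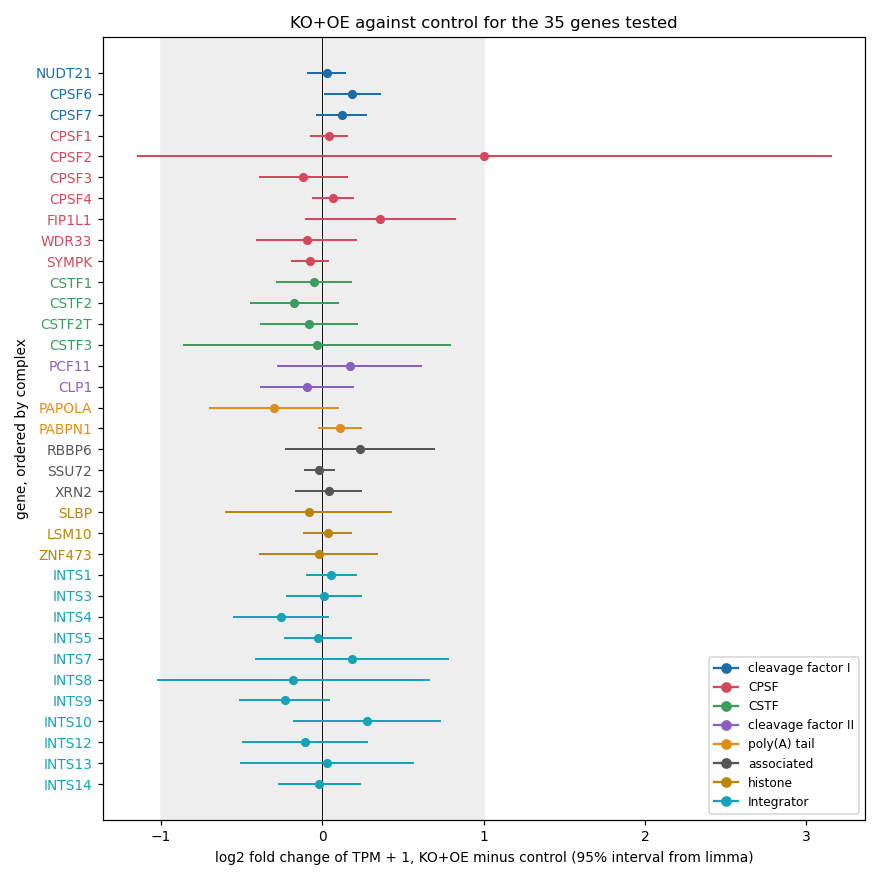
Log2 fold change of TPM + 1 (KO+OE minus control, horizontal axis) with its 95% interval from limma for the 35 genes tested, ordered and coloured by complex, with 2-fold in either direction shaded. The intervals of CPSF2 and INTS8 reach beyond the shaded range and the interval of CPSF6 alone does not include 0.

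Cleavage factor I was examined first. It is built from a pair of CFIm25 subunits and a pair of larger subunits, CFIm68 (CPSF6) or CFIm59 (CPSF7). NUDT21 (ENSG00000167005; RefSeq, GRCh38.p14, chromosome 16 from 56429133 to 56451332, minus strand) was listed at 160.67 and 152.20 TPM in control versus 162.09 and 156.60 TPM in KO+OE. The groups overlapped, with control replicate 2 the lowest and KO+OE replicate 1 the highest. Mean levels (± SD, n = 2) were 156 ± 5.99 TPM for control and 159 ± 3.88 TPM for KO+OE. The log2 fold change was 0.03 (95% interval -0.09 to 0.14) with an adjusted p = 0.980 from limma, and it was -0.01 without control replicate 2. The table has 1 row for NUDT21, in which RNA of the edited gene and RNA of the returned cDNA cannot be told apart, so this level is no check of the edit.

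CPSF6 (chromosome 12 from 69239569 to 69274358, plus strand) was listed at 20.82 and 22.22 TPM in control versus 24.62 TPM in both KO+OE libraries. Both KO+OE libraries lay above both control libraries. The log2 fold change was 0.19 (95% interval 0.02 to 0.36), with an unadjusted p = 0.0359 and an adjusted p = 0.928 from limma, so the difference did not pass the correction over all genes. Leaving out 1 library gave 0.14 to 0.23. CPSF7 (chromosome 11 from 61402729 to 61429975, minus strand) was listed at 38.99 and 36.29 TPM in control versus 40.84 and 41.05 TPM in KO+OE. These groups did not overlap either, and the log2 fold change was 0.12 (95% interval -0.03 to 0.27), with an adjusted p = 0.931 from limma. NUDT21 RNA exceeded CPSF6 RNA 6.36 to 7.72 times and CPSF7 RNA 3.82 to 4.19 times over the 4 libraries. For each partner both KO+OE ratios were below both control ratios. The ratios share NUDT21 and are not independent, and how often ratios of other gene pairs separate was not tested. Among single genes, 34.1% of all tested did not overlap between the groups.

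The mean levels of the CPSF genes were 42.3-fold apart, from CPSF1 to CPSF2, and 127-fold apart without KO+OE replicate 1, in which CPSF2 was high. CPSF1, its large scaffold subunit, was listed at 145.26 and 137.03 TPM in control versus 143.89 and 146.95 TPM in KO+OE. CPSF4, a zinc finger subunit that binds the hexamer together with WDR33, was listed at 64.34 and 65.24 TPM in control versus 69.80 and 66.26 TPM in KO+OE. SYMPK, the scaffold that joins CPSF to CSTF, was listed at 61.37 and 61.10 TPM in control versus 58.17 and 57.82 TPM in KO+OE. The groups overlapped for CPSF1 and not for CPSF4 or SYMPK, whose log2 fold changes were 0.07 and -0.08. The endonuclease CPSF3 was listed at 9.24 to 11.31 TPM and WDR33 at 4.52 to 5.34 TPM, and their groups overlapped. FIP1L1, which contacts the poly(A) polymerase, was listed at 4.94 and 3.35 TPM in control versus 5.64 and 5.40 TPM in KO+OE. Its groups did not overlap, and its log2 fold change of 0.36 had a 95% interval of -0.10 to 0.82. Control replicate 2 was its lowest library, and the fold change was 0.13 without that library and 0.58 without control replicate 1.

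CPSF2, a relative of CPSF3 without nuclease activity, was the gene in which 1 library stood apart. It was listed at 1.22 and 1.31 TPM in control versus 10.19 and 0.84 TPM in KO+OE. KO+OE replicate 1 was 7.78 times the next highest library, while KO+OE replicate 2 was the lowest of the 4. The log2 fold change of 1.003 had a 95% interval of -1.14 to 3.15 and an adjusted p = 0.948 from limma. Leaving out KO+OE replicate 1 turned it to -0.30, and leaving out KO+OE replicate 2 raised it to 2.30. CPSF2 was the only one of the 35 genes with 1 library over 3 times the next highest. Of all genes tested, 125 (1.01%) had such a library, in about equal numbers for each of the 4 (30 to 33). The ratio of CPSF1 to CPSF2 was 105 to 175 in the other 3 libraries and 14.1 in KO+OE replicate 1.

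The genes of CSTF lay within a 2.50-fold range. CSTF1, the WD40 subunit, was listed at 10.33 and 10.74 TPM in control versus 9.74 and 10.53 TPM in KO+OE. CSTF2, which binds the downstream RNA element, was listed at 9.34 and 8.27 TPM in control versus 7.96 and 7.41 TPM in KO+OE. Its paralogue CSTF2T was listed at 4.21 and 4.34 TPM in control versus 4.01 and 3.96 TPM in KO+OE. For both RNA-binding subunits the KO+OE libraries lay below the control libraries, with log2 fold changes of -0.17 and -0.08 and intervals that included 0. CSTF2 RNA exceeded CSTF2T RNA 1.87 to 2.22 times. CSTF3, the scaffold of the complex, was listed at 10.57 and 5.59 TPM in control versus 9.27 and 6.09 TPM in KO+OE, so that the replicates of a group differed far more than the group means. Its log2 fold change was -0.03 (95% interval -0.86 to 0.79), which became -0.44 when control replicate 2 was left out and 0.37 when control replicate 1 was. All 4 fold changes were below 0, while over all genes tested 45.5% were above 0. The fold change of CSTF3 turned when 1 library was left out. The summed level of the 4 genes overlapped between control (34.45 and 28.94 TPM) and KO+OE (30.98 and 27.99 TPM).

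Cleavage factor II was low. CLP1, an RNA kinase, was listed at 6.36 and 6.79 TPM in control versus 6.45 and 5.74 TPM in KO+OE. PCF11, which also binds the tail of RNA polymerase II, was listed at 2.24 and 3.14 TPM in control versus 3.07 and 3.17 TPM in KO+OE. The groups overlapped for both, and the log2 fold change of PCF11 (0.17) was -0.01 without control replicate 1, its lowest library.

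Tail synthesis showed a gap between the polymerases and the protein that coats the new tail. PABPN1, the nuclear poly(A)-binding protein, was listed at 65.16 and 62.51 TPM in control versus 70.54 and 67.47 TPM in KO+OE. PAPOLA, the main nuclear poly(A) polymerase, was listed at 6.83 and 5.99 TPM in control versus 5.74 and 4.36 TPM in KO+OE. Its relative PAPOLG was listed at 0.38 and 0.77 TPM in control versus 0.36 and 0.55 TPM in KO+OE. The groups did not overlap for PABPN1 (log2 fold change 0.11, 95% interval -0.02 to 0.24) or PAPOLA (-0.30, 95% interval -0.70 to 0.10), with an adjusted p of 0.931 and 0.932 from limma. Leaving out 1 library moved the fold change of PAPOLA between -0.46 and -0.13. The readthrough row BCL2L2-PABPN1 shares sequence with PABPN1 and was listed at 0 and 1.68 TPM in control versus 0.16 and 2.05 TPM in KO+OE, so the split of reads between the rows is uncertain. In all, 21 rows carried names of paralogues, pseudogenes, readthrough or antisense RNAs of the 40 genes, of which 11 were listed at 0 throughout and 1, this readthrough row, exceeded 1 TPM in any library.

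Among the associated factors, SSU72, a phosphatase of the RNA polymerase II tail, was the most abundant of the 40 genes. It was listed at 193.73 and 189.82 TPM in control versus 186.89 and 191.89 TPM in KO+OE, with a log2 fold change of -0.02 (95% interval -0.11 to 0.07). The 8 pseudogene rows named after SSU72 were listed at 0 in all libraries. XRN2, the exonuclease that degrades the RNA left after cleavage, was listed at 17.45 to 19.29 TPM with overlapping groups. RBBP6, which activates the CPSF endonuclease, was listed at 2.78 and 4.06 TPM in control versus 4.12 and 4.16 TPM in KO+OE. Its fold change of 0.23 on the log2 scale was 0.02 without control replicate 1, the only low library.

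The mean levels of the histone factors were 268-fold apart. LSM10, a ring subunit of the U7 particle, was listed at 119.50 and 108.55 TPM in control versus 115.83 and 117.24 TPM in KO+OE. LSM11, its partner in the same ring, was listed at 0.72 and 0.88 TPM in control versus 0.77 and 0.81 TPM in KO+OE. LSM10 RNA exceeded LSM11 RNA 123 to 166 times, although both proteins belong to the same ring. SLBP, the protein that binds the histone stem-loop, was listed at 17.06 and 24.99 TPM in control versus 21.60 and 17.51 TPM in KO+OE. Both KO+OE libraries of SLBP lay between the control libraries, and its log2 fold change of -0.08 became -0.35 when control replicate 1 was left out and 0.18 when control replicate 2 was. ZNF473, a U7-associated zinc finger protein, was listed at 2.36 to 2.54 TPM, the narrowest range among the genes under 5 TPM that were tested. CASP8AP2, which is required for histone mRNA processing, was listed at 0.30 and 0.35 TPM in control versus 0.43 and 0.64 TPM in KO+OE. Its groups did not overlap, but it had a mean under 1 TPM and was not among the genes tested.

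Of the 13 Integrator genes, 11 were tested, with 5 fold changes above 0 and 6 below 0. Over all genes tested, 45.5% of fold changes were above 0. INTS1, a large scaffold subunit, was listed at 77.60 and 76.74 TPM in control versus 76.45 and 84.41 TPM in KO+OE. INTS2, another structural subunit, was listed at 0.49 and 0.42 TPM in control versus 0.34 and 0.33 TPM in KO+OE. INTS1 RNA exceeded INTS2 RNA 158 to 256 times over the 4 libraries. INTS6, a subunit of the phosphatase module, was listed at 0.50 and 0.44 TPM in control versus 1.24 and 0.49 TPM in KO+OE, where KO+OE replicate 1 alone was high. Its paralogue INTS6L, not a member of the list, was listed at 0.14 to 0.74 TPM, and the antisense row INTS6-AS1 at 0.01 to 0.35 TPM. The sources used here do not say whether counting used strand, so reads of INTS6 and its antisense RNA may not be separated.

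Integrator genes without overlap between the groups were INTS4, INTS5 and INTS9 among the 11 tested, all lower in KO+OE, and the untested INTS2. Of all genes tested, 34.1% did not overlap, so this count does not set Integrator apart. INTS9, the inactive partner of the Integrator endonuclease, was listed at 7.36 and 7.34 TPM in control versus 5.74 and 6.49 TPM in KO+OE. INTS4, which joins that pair in the cleavage module, was listed at 8.94 and 10.09 TPM in control versus 7.28 and 8.32 TPM in KO+OE. The log2 fold changes were -0.23 (95% interval -0.51 to 0.04) for INTS9 and -0.26 (95% interval -0.55 to 0.03) for INTS4, each with an adjusted p of 0.931 from limma. INTS11, the endonuclease of the same module and not a member of the list, was listed at 106.89 and 98.88 TPM in control versus 103.70 and 107.79 TPM in KO+OE. Its groups overlapped, and its log2 fold change was 0.04 (95% interval -0.10 to 0.18). INTS5 was listed at 11.07 and 11.18 TPM in control versus 11.06 and 10.72 TPM in KO+OE, with a log2 fold change of -0.03. Its groups were apart only in the last decimal given (11.07 and 11.06 TPM).

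The remaining Integrator genes varied between replicates. INTS8 was listed at 3.30 and 2.07 TPM in control versus 3.23 and 1.43 TPM in KO+OE. In both groups replicate 2 was the lower library. The log2 fold change was -0.18 (95% interval -1.02 to 0.66), which became -0.58 when KO+OE replicate 1 was left out and 0.22 when KO+OE replicate 2 was. INTS7 was listed at 1.87 and 1.81 TPM in control versus 2.92 and 1.65 TPM in KO+OE. As in CPSF2 and INTS6, KO+OE replicate 1 was the high library of INTS7, and its log2 fold change of 0.18 was -0.10 without it. INTS13 was listed at 2.28 and 1.68 TPM in control versus 1.67 and 2.43 TPM in KO+OE, and leaving out 1 library moved its log2 fold change between -0.15 and 0.21. INTS10 was listed at 6.72 and 8.76 TPM in control versus 10.87 and 8.33 TPM in KO+OE, with overlapping groups. Its fold change of 0.28 on the log2 scale (95% interval -0.17 to 0.73) ran from 0.10 to 0.45 when 1 library was left out. INTS3 (11.31 to 12.51 TPM), INTS12 (3.03 to 3.94 TPM) and INTS14 (9.30 to 10.53 TPM) overlapped between the groups. KO+OE replicate 1 was not the high library in general: it was the highest library for 9 of the 35 genes tested, and for 26.2% of all genes tested.

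**Figure D3:**
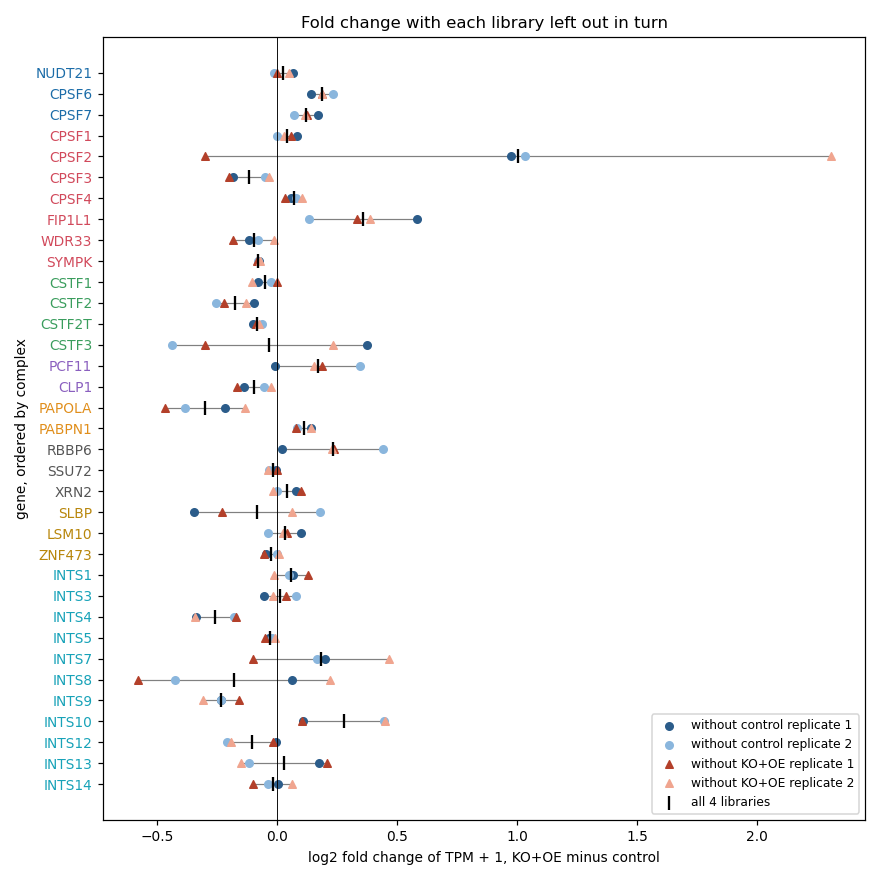
Log2 fold change of TPM + 1 (KO+OE minus control, horizontal axis) for the 35 genes tested, with black ticks for all 4 libraries and symbols for each library left out in turn. The symbols of CPSF2 lie farthest apart, from -0.30 to 2.30, and 15 of the 35 genes change sign.

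Replicate spread of these genes was set beside that of the table. The median absolute log2 difference between replicates was 0.0836 in control and 0.102 in KO+OE over the 35 genes, against 0.112 and 0.110 over all genes tested. Its mean over the 35 genes was 0.163 for the control pair, 0.228 for the KO+OE pair and 0.157 to 0.216 for pairs of libraries from different groups. Without CPSF2 these became 0.167, 0.158 and 0.152 to 0.168, so libraries of different groups were about as far apart as replicates.

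Levels of the 40 genes were next set beside the base composition of their transcripts, which the choice of genes did not use. GC content was that of the canonical transcript in GENCODE release 44. The 9 genes under 40% GC had a median level of 2.51 TPM, the 19 genes between 40 and 50% had 6.33 TPM, and the 12 genes at 50% or more had 63.0 TPM. Among the 35 genes that passed the filter the medians were 4.56, 7.88 and 63.0 TPM, beside 2.80, 5.38 and 12.7 TPM over all genes tested. Spearman's rho between level and GC content was 0.533 to 0.601 over the 40 genes in the 4 libraries and 0.846 to 0.890 over the 13 Integrator genes. Integrator was the only complex taken alone, and its values include INTS2 and INTS6, whose means were under 1 TPM. With the mean level, rho was 0.513 over the 35 genes that passed the filter and 0.275 over all genes tested. These are descriptions across genes, which are not independent replicates and share the same libraries. Transcript length moved with both, at a rho of -0.485 to -0.410 with the level and -0.386 with GC content, and the part of either in the levels was not tested.

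Among the 9 genes of the list under 40% GC, NUDT21 had the highest level. Its transcript had 37.01% GC and a level of 158 TPM, and CPSF6, at 36.9% GC, had 23.1 TPM. The other 7 genes under 40% GC, among them PAPOLA, CPSF2, PAPOLG, CASP8AP2 and INTS6, had means of at most 5.73 TPM. In the libraries labelled control alone, NUDT21 was at 152.20 and 160.67 TPM. How often genes outside the list reach such a level under 40% GC was not counted.

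**Figure D4:**
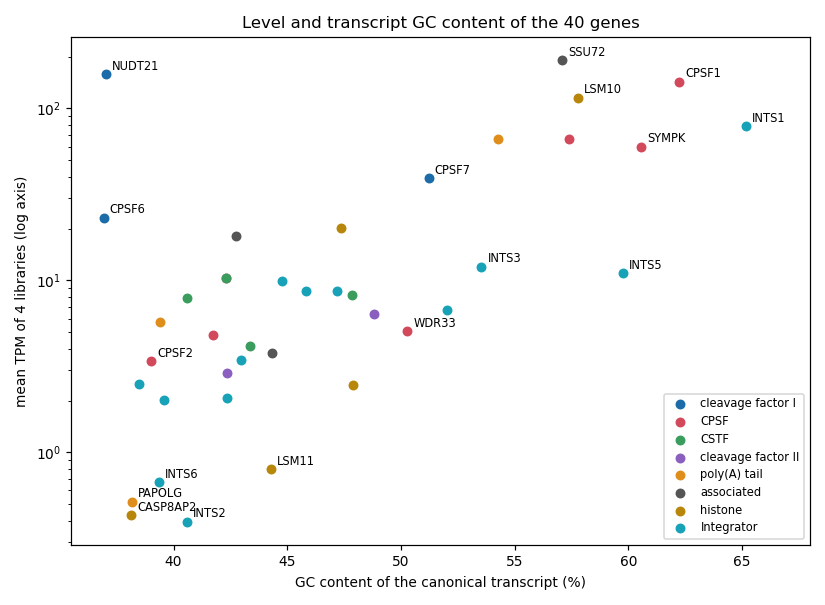
Mean TPM of the 4 libraries (vertical log axis) against the GC content of the canonical transcript in percent (horizontal axis) for the 40 genes, coloured by complex. The 12 genes at 50% GC or more have a median of 63.0 TPM, and NUDT21 lies far above the other genes under 40% GC.

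Other genes of the pathway, 50 in number, were taken from a list of cap-binding, small nuclear RNP, phosphatase, tail polymerase, kinase, splicing and termination factors. Of these, 49 were found and 40 tested, with 17 fold changes above 0 and 23 below 0 and a median of -0.01 on the log2 scale. Over all genes tested, 45.5% of fold changes were above 0. None of the 40 passed an adjusted p of 0.05 in limma. An unadjusted p under 0.05 from limma was seen for 2 of the 40, near the share of all genes tested (5.33%). The genes named here were picked after their values were seen. SRSF3, a splicing factor that also acts on poly(A) site choice, was listed at 97.52 and 97.64 TPM in control versus 88.86 and 83.25 TPM in KO+OE, with a log2 fold change of -0.18 (95% interval -0.30 to -0.06). TUT1, which adds uridines to U6 small nuclear RNA, was listed at 18.37 and 16.81 TPM in control versus 15.27 and 14.05 TPM in KO+OE, with a log2 fold change of -0.25 (95% interval -0.47 to -0.03). For both genes the groups did not overlap, and limma gave an adjusted p = 0.928. SNRPD3, which is shared by spliceosomal and U7 particles, was listed at 12.99 and 29.16 TPM in control versus 30.22 and 39.87 TPM in KO+OE. Control replicate 1 was far below the other 3 libraries, and the fold change of 0.80 on the log2 scale had a 95% interval of -0.17 to 1.76.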

How the data were processed

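The study measured poly(A)-selected RNA from 2 control and 2 KO+OE libraries, sequenced as paired reads, and groups and replicate numbers follow the sample titles. The columns of the table were matched to the titles by the letter and number in their names (c for control, f for 3Flag) and by the name that a supplementary sheet of the study gives the f columns, and every direction rests on this match. The authors deposited a table of 60671 genes, read here as TPM because each column holds decimals and sums to nearly the same total; its header names no unit, and values are rounded to 2 decimals. The submitters' processing notes name hg38, HISAT2, featureCounts, Subread and DESeq2, without versions. Counts were not used here, so count tests were not run and the limma test replaced them. The number of further per-sample columns was 0.

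Groups were compared on log2(TPM + 1) with limma 3.58.1 (lmFit, eBayes with a mean-dependent prior, two-sided) run under R 4.3.3 with a single term for group, on genes averaging 1 TPM or more. The Benjamini-Hochberg adjustment covered all 12319 genes, with a call below an adjusted p of 0.05. This fit was also run on simulated data with no change or with changes larger than those of the members. It was not tested on changes as small as those of most members. The members and lists were chosen with earlier results of these data known. Values are given in full for NUDT21, CPSF6 and CPSF7 and for genes at an unadjusted p under 0.05, with an interval beyond 2-fold or with an unstable sign. The highest and lowest gene of each complex and genes under 1 TPM are also given in full, and most others were added. Of the genes with an unstable sign, XRN2, ZNF473, INTS3 and INTS14 had smaller sign changes and are given as ranges. Gene positions are from RefSeq (GRCh38.p14). Guides were matched to GRCh37, and transcript GC content and length come from the GRCh37 version of GENCODE release 44, matched on Ensembl identifiers and found for all 40 genes and for 98.6% of those tested. The software was Python 3.11.15 with scipy 1.17.1, pysam 0.24.0, matplotlib 3.10.9, numpy 2.4.6 and pandas 2.3.3. Alternatives were the replicate block, leaving out each library, quantile normalization, median-ratio rescaling, removal of mitochondrial genes, a constant prior in limma, pseudocounts of 0.1 and 5, and a minimum mean of 5 TPM or none.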

Additional observations from a re-analysis of the deposited data

How the results depend on the processing

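No member passed an adjusted p of 0.05 in limma under any of the 13 alternatives, where the lowest adjusted p of a member was 0.274, and the median fold change of the members stayed between -0.0218 and 0.0064 on the log2 scale. Members at an unadjusted p under 0.05 numbered 2 with median-ratio rescaling, quantile normalization or mitochondrial genes removed, and 0 without the mean-dependent prior. Over all genes tested, the counts at these settings were 645 of 12306, 647 of 12311, 676 of 13048 and 688 of 12319. The 1 gene called among all genes was lost (0 called) with quantile normalization, pseudocounts of 0.1 and 5, and a minimum mean of 5 TPM or none, and the cause was not tested. Leaving out 1 library gave 0 to 9 called genes, the 9 without control replicate 2. Differences between replicates 1 and 2 were hardly correlated between the groups over the genes tested (-0.0485). This cannot show whether same-numbered libraries were prepared together. With the replicate block 0 genes were called, with 0 members at an unadjusted p under 0.05, against 673 of all 12319 genes. With quantile normalization the fold changes of ZNF473 and INTS14 turned to 6e-05 and 0.00087. With 1 library left out, where the lone library is assumed to vary like the other group, the log2 fold change ran from -0.012 to 0.066 for NUDT21, -0.30 to 2.30 for CPSF2, -0.44 to 0.37 for CSTF3, -0.00709 to 0.35 for PCF11, -0.037 to 0.00093 for SSU72, -0.019 to 0.10 for XRN2, -0.35 to 0.18 for SLBP, -0.036 to 0.10 for LSM10, -0.053 to 0.00638 for ZNF473, -0.013 to 0.13 for INTS1, -0.056 to 0.078 for INTS3, -0.10 to 0.47 for INTS7, -0.58 to 0.22 for INTS8, -0.15 to 0.21 for INTS13 and -0.10 to 0.063 for INTS14. The range of mean levels within CPSF without KO+OE replicate 1 (127-fold) was added after seeing the data. Also outside the results planned beforehand were the comparisons with GC content and length and the ratios of gene pairs. The same holds for the distances between libraries and the rule of 3 times the next highest library. The depth is unknown, and the precision rests on 2 libraries per group.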
